A study of Mus musculus with 13 samples.

Results

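The S100 genes encode small calcium-binding proteins, and 10 of them were followed here in mouse keratinocytes: S100a1, S100a3, S100a4, S100a6, S100a8, S100a9, S100a10, S100a11, S100a13 and S100a14. Members were taken as every probe set of the array annotated to one of these symbols and to no other gene. Of the 10 genes 9 had such a probe set, 11 probe sets in all, out of 20393 that name 1 gene and 22690 on the array. S100a11 had none, because its probe set 1460351_at is also annotated to a pseudogene and to a predicted gene. S100a1 and S100a10 had 2 probe sets each, and the one with the highest mean stands for the gene in the counts.

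The arrays came from primary keratinocytes, the main cells of the epidermis, and every culture carried a retrovirus encoding the p63 isoform DNp63alpha joined to an estrogen receptor domain (ERDNp63a). Tamoxifen activates such a fusion protein. Untreated cells gave 1 array, and a further 12 arrays cover the times from 20 to 240 min of tamoxifen at steps of 20 min. No time has a replicate array. Cells without the fusion protein or without tamoxifen over the same hours were not analysed here. Elapsed time, handling and tamoxifen itself therefore cannot be told apart from induction.

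S100 proteins carry a pair of EF-hands, the helix-loop-helix calcium site that calmodulin also has, and mostly work as dimers. On binding calcium most of them expose a surface that grips a partner, such as an annexin or a cytoskeletal protein. Most of their genes, the 10 followed here included, lie in or near the epidermal differentiation complex, next to the genes of the cornified envelope, and several respond to injury, inflammation or differentiation in skin. Inside cells they act on the cytoskeleton and membranes, and some are released as signals.

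All 10 genes lie on chromosome 3 (GRCm38.p6, RefSeq annotation), from 90511034 to 93564645. S100a1 (90511034 to 90514330), S100a13 (90514233 to 90524581), S100a14 (90526849 to 90528837), S100a3 (90560356 to 90602706), S100a4 (90603770 to 90606045), S100a6 (90612894 to 90614414), S100a8 (90669071 to 90670034) and S100a9 (90692630 to 90695721) stand close together, and S100a11 and S100a10 follow beyond a gap. S100a16, which is not among the 10, lies between S100a14 and S100a3, and S100a5 lies between S100a4 and S100a6. S100a1 and S100a13 are transcribed away from each other, and 104 bases separate the start of S100a1 on the minus strand from a start of S100a13 on the plus strand. The annotated span of S100a13 nevertheless begins within that of S100a1.

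Sequences from the RefSeq promoter table (GRCm38.p6) are shown for S100a4 and S100a6, which were higher from 80 min by a larger and a smaller step, and for S100a8, which passed neither main test. They are the 250 bases before each start, and the stretch between these starts of S100a1 and S100a13 is added. All read 5′ to 3′ on the plus strand, and capitals mark TATAAA, the TATA box letters, searched on both strands.
S100a4, chr3:90603520-90603769: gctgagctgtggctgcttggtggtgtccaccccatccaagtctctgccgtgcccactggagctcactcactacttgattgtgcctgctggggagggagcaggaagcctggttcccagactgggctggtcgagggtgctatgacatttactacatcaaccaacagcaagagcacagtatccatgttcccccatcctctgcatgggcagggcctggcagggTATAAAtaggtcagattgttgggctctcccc
S100a6, chr3:90612644-90612893: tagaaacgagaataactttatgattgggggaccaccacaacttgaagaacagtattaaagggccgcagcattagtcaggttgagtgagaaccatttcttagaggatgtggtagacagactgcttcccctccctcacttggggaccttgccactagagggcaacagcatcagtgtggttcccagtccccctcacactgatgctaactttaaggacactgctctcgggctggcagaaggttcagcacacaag
S100a8, chr3:90668821-90669070: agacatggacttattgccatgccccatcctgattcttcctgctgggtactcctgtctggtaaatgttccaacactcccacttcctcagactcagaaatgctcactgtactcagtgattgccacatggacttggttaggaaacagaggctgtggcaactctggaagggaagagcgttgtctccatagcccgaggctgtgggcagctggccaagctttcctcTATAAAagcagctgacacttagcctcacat
S100a1 to S100a13, chr3:90514331-90514434: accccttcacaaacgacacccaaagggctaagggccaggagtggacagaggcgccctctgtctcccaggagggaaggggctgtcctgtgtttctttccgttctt
TATAAA stood at base -31 before the start of S100a4 and at base -30 before that of S100a8, and the S100a6 window and the stretch between S100a1 and S100a13 held none. A further match stood at base -52 in 1 of the 4 windows of S100a3. Of all 32851 windows, 12.4% held these letters. Of the 10 genes 8 had windows, 11 in all. The letters TGANTCA, an AP-1 site, searched on both strands, stood in 6.75% of all windows and, among these 8 genes, only in that of S100a11. CATG followed after 6 bases by a further CATG, the paired core letters of a p53-family site, stood in 0.49% of all windows and in none of the 11. A match is a description of the letters and no evidence of binding.

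The intensities of the S100 genes fell into 3 patterns across the 13 arrays. S100a3, S100a4, S100a6 and S100a13 were higher from 80 min onward, S100a14 was lower from 80 min onward, and S100a1, S100a8, S100a9 and S100a10 passed neither the test of a linear trend nor that of a step. Shifts ran up to 1.38-fold between the parts of the course. Array medians were close to each other (237.4 to 251.5 intensity units), so each change is relative to the bulk of the genes. In bulk RNA, fewer cells of a type and less RNA per cell cannot be told apart.

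**Figure D1:**
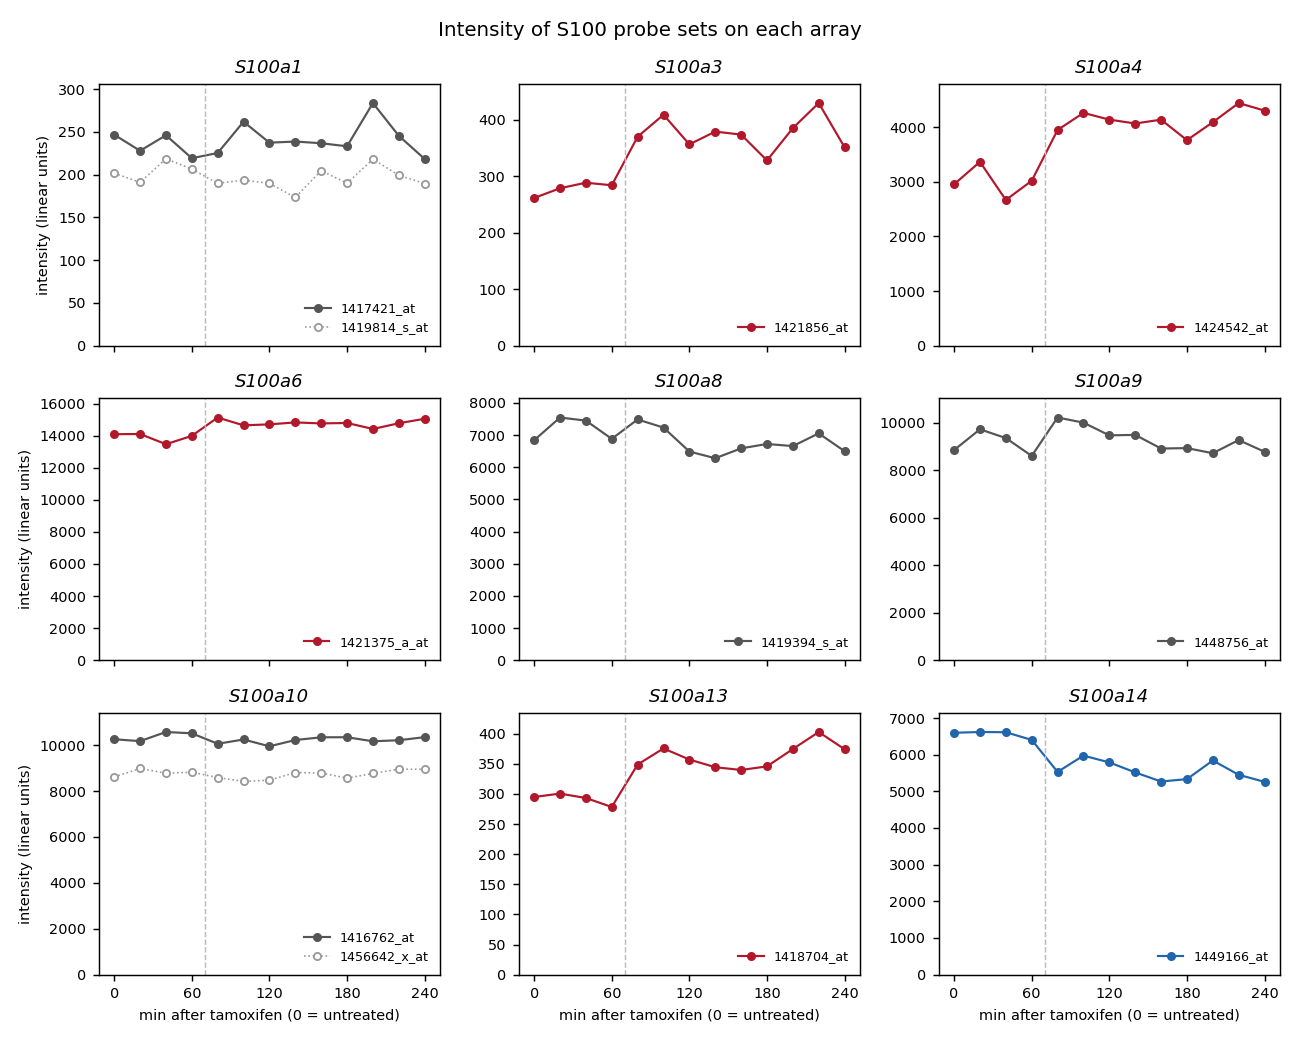
Intensity (linear units, axis from 0) of each S100 probe set on the 13 arrays against minutes after tamoxifen, with untreated cells at 0; each point is 1 array, and the dashed vertical line lies between the 60 and 80 min arrays. Solid lines are the probe sets that stand for the gene (red, higher from 80 min; blue, lower; grey, step not past the threshold), and dotted grey lines are second probe sets. S100a3, S100a4, S100a6 and S100a13 lie higher on every array from 80 min than on any up to 60 min, and S100a14 lies lower.

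S100a4 (metastasin, 1424542_at), which binds non-muscle myosin and is made by motile and mesenchymal cells, changed the most along the line. Its intensity was between 3763 and 4442 in the 9 arrays from 80 min (median 4138), against 2955 in untreated cells, 3366 at 20 min, 2668 at 40 min and 3019 at 60 min. The arrays up to 60 min and those from 80 min did not overlap, and the highest value, at 220 min, stood well above the early ones. On the log2(intensity + 16) scale used for all tests, the mean was 12.02 ± 0.0700 from 80 min (SD, 9 arrays) and 11.55 ± 0.137 up to 60 min (SD, 4 arrays). That step was 0.46 ± 0.0507 (SE), or 1.38-fold, with a limma adjusted p of 8.23e-06. A straight line over 4 h gave 0.57 ± 0.119 (SE, 13 arrays), 1.49-fold, with an adjusted p of 0.00256.

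S100a3 (1421856_at), a cysteine-rich member best known from the hair cuticle, followed the same course. It was between 328.2 and 429.9 from 80 min (median 374.0), against 261.7 in untreated cells and 278.9, 288.8 and 284.2 at 20, 40 and 60 min. Again no array of one part reached the other. The step was 0.41 ± 0.0587 (SE), 1.33-fold, adjusted p = 8.4e-05, and the line rose 1.41-fold (0.50 ± 0.124, SE; adjusted p = 0.00859). Without the untreated array the call of the line was lost (adjusted p = 0.0501), with a slope of 0.108 per hour against 0.124 over all arrays.

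S100a13 (1418704_at), which takes part in the release of FGF1 and interleukin 1 alpha from cells, was between 339.8 and 402.8 from 80 min (median 357.1). It was at 295.0 in untreated cells and at 300.5, 293.2 and 278.3 at 20, 40 and 60 min, so its 2 parts did not overlap either. The step was 0.30 ± 0.0471 (SE), 1.23-fold, adjusted p = 0.000208. The line rose 1.32-fold (0.40 ± 0.0846, SE; adjusted p = 0.00307). S100a3, S100a4 and S100a13 all had their highest value on the 220 min array.

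S100a6 (calcyclin, 1421375_a_at), a gene of proliferating and epithelial cells, shifted by a much smaller amount. Its intensity was between 14424 and 15138 from 80 min (median 14779), against 14098 in untreated cells and 14109.8, 13473 and 13992 at 20, 40 and 60 min. The parts did not overlap, and the step was 0.09 ± 0.0173 (SE), 1.06-fold, adjusted p = 0.00125. The line rose 1.07-fold with an adjusted p of 0.0492, and this call was kept only when the 80, 100 or 200 min array was the one left out; leaving out any of the other 10 arrays lost it (adjusted p up to 0.118). The highest intensity of any probe set on the array was 19676, so S100a6 was read in the upper range, where arrays can understate a rise.

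S100a14 (1449166_at), an epithelial member with an altered calcium site, was the only one of the 9 genes called lower in the fits of the line and of the step. It was between 5258.5 and 5974 from 80 min (median 5516), against 6597.5 in untreated cells and 6618, 6612 and 6403 at 20, 40 and 60 min. The 4 early arrays were close to each other and all above the later 9. The mean was 12.44 ± 0.0671 from 80 min (SD, 9 arrays) and 12.68 ± 0.0229 up to 60 min (SD, 4 arrays). The step was -0.24 ± 0.0341 (SE), a 1.18-fold fall, adjusted p = 7.69e-05. Along the line it fell 1.26-fold (-0.34 ± 0.0591, SE; adjusted p = 0.000872).

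S100a8 (1419394_s_at) and S100a9 (1448756_at) encode the subunits of calprotectin, which keratinocytes make in inflamed skin and neutrophils carry in bulk. S100a8 was between 6279 and 7485 from 80 min (median 6657.5), against 6838 in untreated cells and 7546, 7449 and 6882 at 20, 40 and 60 min. These parts overlapped. Its change along the line was -0.15 ± 0.0614 (SE; adjusted p = 0.0983), and its best single break lay later than that of the 5 genes above, between 100 and 120 min. The 5 had theirs between 60 and 80 min, as did S100a10 (1416762_at). So did 32.9% of the 7436 genes at or above the 40th percentile of mean level. S100a9 was between 8712.5 and 10215 from 80 min (median 9267), against 8845 in untreated cells and 9718, 9351 and 8599 at 20, 40 and 60 min. It stood highest at 80 and 100 min (10215 and 10000.1) and was back at 8909 by 160 min. A line through all arrays gave -0.07 ± 0.0622 (SE; adjusted p = 0.454). Fitted together, a step between 60 and 80 min was 0.19 ± 0.0524 (SE; adjusted p = 0.047) and the slope was -0.075 per hour (adjusted p = 0.155).

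S100a10 (p11), the calcium-independent partner of annexin A2, and S100a1, a regulator of calcium handling best known in muscle, did not pass any test. The S100a10 probe set 1416762_at was between 9953 and 10351 from 80 min, against 10178 to 10576 in the 4 earlier arrays, and its change along the line was -0.01 with a 95% interval from -0.07 to 0.05 (adjusted p = 0.901). The second one, 1456642_x_at, gave 0.02 with an interval from -0.05 to 0.09 (adjusted p = 0.749). For S100a1, 1417421_at was between 218.3 and 283.7 from 80 min, against 219.2 to 246.7 before. Its interval was wider, from -0.15 to 0.22 around 0.04 (adjusted p = 0.834), and its highest value was on the 200 min array. The other S100a1 probe set, 1419814_s_at, gave -0.03 with an interval from -0.20 to 0.13 (adjusted p = 0.826). S100a1 thus had no detectable change, while S100a13, which has a start 104 bases away on the other strand, rose. The difference between these genes was not tested.

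**Figure D2:**
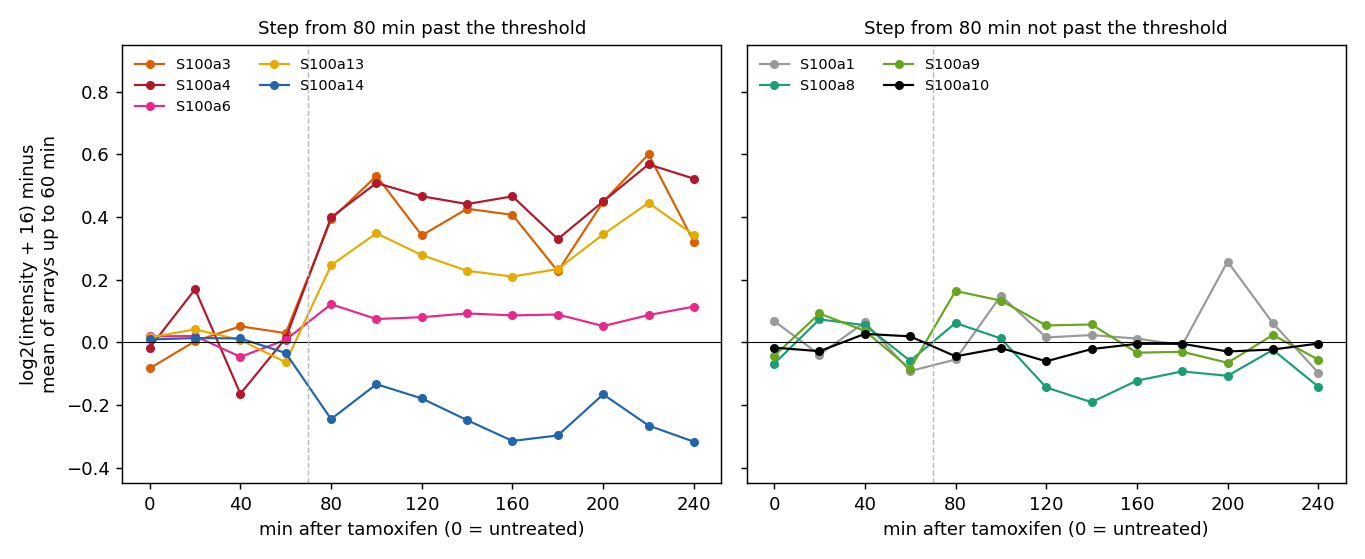
Log2(intensity + 16) of each S100 gene minus its own mean over the 4 arrays up to 60 min, against minutes after tamoxifen (untreated at 0), 1 point per array. Left, the 5 genes whose step from 80 min passed the threshold; right, the other 4, of which S100a9 is highest at 80 and 100 min and S100a1 at 200 min.

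Counted over the 9 genes, 4 rose and 1 fell along the line. Among all probe sets naming 1 gene 22.4% passed this test, 12.2% rising and 10.2% falling, and among the 7436 genes left after dropping dim ones 39.9% did, 22.3% rising and 17.6% falling. For the step between 60 and 80 min, again 5 of 9 passed, 4 higher and 1 lower from 80 min, against 25.1% of probe sets (12.7% higher, 12.4% lower) and 41.7% of the 7436 genes (21.7% higher, 20.1% lower). All 9 S100 genes lie among those 7436, so their 5 of 9 is read against 39.9% and 41.7% and is not far from either. The median change along the line was 0.04 over the 9 genes and -0.0021 over all genes (log2). In 5 of 9 genes the arrays from 80 min did not overlap those up to 60 min, against 22.7% of the 7436 genes (11.7% higher, 11% lower). The place of this break was known from earlier results over all genes of these data, so the p-values of the step describe the S100 genes and are no independent test of a break there.

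A smooth course over time (natural spline, 3 degrees of freedom) was called for 4 of the 9 genes, S100a3 (adjusted p = 0.0168), S100a4 (0.0165), S100a13 (0.0392) and S100a14 (0.00591), against 12% of probe sets and 24.9% of the 7436 genes. Leaving out the 20 min array, or untreated cells, brought the spline count to 2, and leaving out any other array gave 3 to 5. Within the 9 arrays from 80 to 240 min no S100 gene was called for a trend, against 0.0147% of probe sets called. There 1 gene had an unadjusted p under the threshold, S100a9 (slope -0.077 per hour, adjusted p = 0.176). Within the 4 arrays up to 60 min 0 of 9 passed, also unadjusted, against 0.142%. With so few probe sets called, both fits could hardly show a trend, and its absence cannot be read from them. With the step as a block in the line fit no S100 gene passed either, and again S100a9 alone had an unadjusted p under the threshold. No probe set of the 20393 was called there (0%). A step and a steady change overlap strongly in such a course, so these fits separate them poorly. With the line as a covariate the step was called for S100a3, S100a4 and S100a9 (adjusted p = 0.0292, 0.0106 and 0.047), against 5.6% of probe sets (2.3% higher). No source used here says whether the arrays up to 60 min and those from 80 min were handled together.

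With neighbouring times standing in for replicates, the last 4 arrays (180 to 240 min, late) were compared with the first 4 after tamoxifen (20 to 80 min, early). S100a4 was at 12.02 ± 0.104 late and 11.66 ± 0.239 early (SD, 4 arrays each; adjusted p = 0.0194). S100a13 was at 8.61 ± 0.0863 late and 8.32 ± 0.133 early (adjusted p = 0.0186), and S100a14 at 12.42 ± 0.0671 late and 12.62 ± 0.123 early (adjusted p = 0.0397). These were 3 of 9 genes, against 11.7% of probe sets (6.57% higher, 5.1% lower). In the fit of the 7436 genes alone 4 of 9 passed, 3 higher and 1 lower, against 26.3% of those genes. In the fit of all probe sets S100a3 missed the threshold (0.28 higher late, adjusted p = 0.0667), as did S100a6 (0.06, 0.225) and S100a8 (-0.12, 0.0885). The early window holds the 80 min array, which lay on the later side of the break. Without that array 5 genes passed, without the 20 min array 1, without the 120, 140 or 240 min array 2 each, and without the 40 or the 220 min array 0. No S100 gene passed as lower when the 20, 40, 120, 140, 180, 220 or 240 min array was the one left out, so the S100a14 call rested on each of these. The early window was also compared with the untreated array, a single array whose spread is assumed to be that of the other times. No S100 gene was called (limma adjusted p of at least 0.9997, 0 of 9 with an unadjusted p under the threshold), and of all probe sets 0.0049% were, so this contrast could hardly show a difference.

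Correlations between the S100 genes are given as a description. Genes that share a step are bound to correlate, so the values add no separate support. Over the 13 arrays Pearson's r of log2 level was 0.922 between S100a4 and S100a13, 0.916 between S100a3 and S100a13 and 0.897 between S100a3 and S100a4. S100a14 ran opposite to S100a6 (r = -0.886) and to S100a4 (-0.823), while S100a8 and S100a9, which form 1 complex, reached 0.55. The 2 probe sets of S100a10 correlated at 0.333 and those of S100a1 at 0.436. The points of all pairs share their arrays.

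Position along the chromosome was set beside the changes, and a link between position and change was not tested. S100a16 (1425560_a_at), 8.416 kb beyond S100a14 and reported to pair with it in human cells, fell with it. It was between 5693 and 6403 from 80 min, against 7022, 7356, 7671 and 7466 up to 60 min, with no overlap (11% of the 7436 genes were lower in this way). The step was -0.32 ± 0.0316 (SE; adjusted p = 3.4e-06) and the line -0.34 ± 0.0937 (SE; adjusted p = 0.0154). S100a3, S100a4 and S100a6, which rose, are neighbours apart from S100a5. That gene is 434 bases beyond S100a4 and was dim, between 109.1 and 125.8 over all arrays (adjusted p = 0.543 along the line). S100a13, 2.267 kb before S100a14, rose. Of the 7 other S100 genes listed 4 were measured, and 3 of these were dim. Along the line 0 of the 4 rose and 1, S100a16, fell, against 12.2% of probe sets rising and 10.2% falling. S100b (adjusted p = 0.544), a marker of glia and melanocytes, and S100g (0.907), an intestinal calcium carrier, were dim, at 123.2 to 146.6 and 83.5 to 95.2 intensity units.

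**Figure D3:**
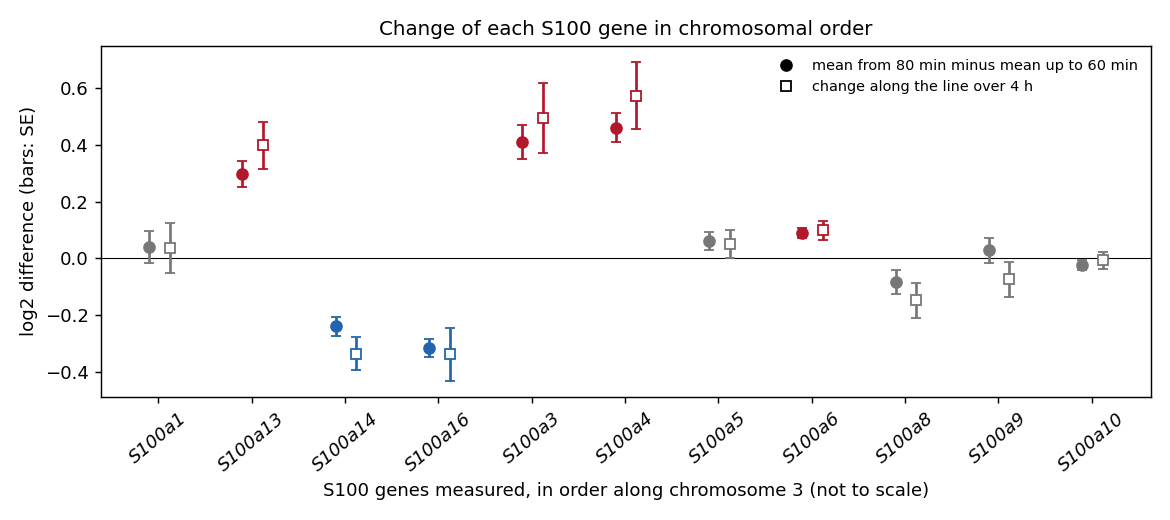
Log2 difference of each measured S100 gene, in its order along chromosome 3 with equal spacing; filled circles are the mean of the 9 arrays from 80 min minus the mean of the 4 up to 60 min, open squares the change along the line over 4 h, and bars SE. Red and blue mark values past the threshold, higher and lower; S100a13, S100a3, S100a4 and S100a6 are above 0, and the neighbours S100a14 and S100a16 are below it.

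For the rising genes with the largest slopes and for S100a14, the genes with the most similar course were sought among 7356 candidate genes by Pearson's r of log2 level over the 13 arrays. S100a4 was closest to Zfpm1 (r = 0.968), Mcam (0.964) and Retsat (0.963). For S100a3 the closest were Rabl6 (0.977), Uqcc2 (0.956) and Ptges (0.949). S100a14 was closest to the small heat shock gene Hspb1 (0.983), to Lzts2 (0.972) and to Rassf1 (0.963). The genes named are the highest of these many candidates, and genes that share a step are bound to correlate. In 22.7% of the 7436 genes the arrays from 80 min did not overlap those up to 60 min, so the likeness is a description.

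Receptors and partners of S100 proteins were followed beside them. Of 7 reported S100 receptor genes 1 rose and 1 fell along the line, a share near the 22.4% of all probe sets called in either direction. Mcam, an adhesion receptor reported to bind S100A8 and S100A9, was between 1387 and 1726 from 80 min, against 942.7, 1035, 826.8 and 928.7 up to 60 min. It rose 1.93-fold along the line (0.95 ± 0.152, SE; adjusted p = 0.000509). Alcam, a related adhesion receptor, was between 517.8 and 695.1 from 80 min, against 837.0, 766.3, 927.8 and 690.2 up to 60 min, a small overlap. Along the line it fell 1.67-fold (-0.74 ± 0.114, SE; adjusted p = 0.000419). Bsg (basigin, adjusted p = 0.211) and Nptn (neuroplastin, 0.0957) were well above background without passing along the line. Ager (the RAGE receptor, 0.525), Tlr4 (0.997) and the scavenger receptor gene Cd36 (0.855) were dim. In the step fit Mcam and Nptn (0.17, adjusted p = 0.0117) were higher from 80 min, and Alcam was lower. These were 2 higher and 1 lower of 7, against 25.1% of probe sets and 41.7% of the 7436 genes in either direction.

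Ahnak encodes a large scaffold held by S100a10 and annexin A2. Among the annexins and Ahnak, 1 of 9 measured genes rose and 2 fell along the line. In either direction 22.4% of probe sets passed, and 39.9% of genes that are not dim. Ahnak fell 1.29-fold (-0.36 ± 0.0657, SE; adjusted p = 0.00109) and Anxa1, whose product binds S100A11, 1.13-fold (-0.17 ± 0.0400, SE; adjusted p = 0.00588), and Anxa4 rose 1.18-fold (adjusted p = 0.0326). Anxa2, the partner of S100a10, had a change of 0.01 ± 0.0551 (SE; adjusted p = 0.93). In the step fit 2 of these 9 genes were higher and 4 lower from 80 min. The shares there were 25.1% of probe sets and 41.7% of genes that are not dim. Beside the same 22.4% and 39.9%, 1 of 16 other EF-hand genes measured, none of them dim, rose along the line, Sri (sorcin, by 0.41, adjusted p = 0.000486). A further 3 fell. These were the calmodulin-like epidermal genes Calml3 (-0.65, adjusted p = 0.00363) and Calm4 (-0.30, adjusted p = 0.000142), and Nucb2 (-0.57, adjusted p = 0.00146). In the step fit 3 of the 16 were higher and 4 lower from 80 min, against the same 25.1% and 41.7%.

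The fused S100-type genes, which join an S100 domain to a long repeat and serve the cornified layer and the hair follicle, stand in the same complex. Of 4 measured 3 fell along the line, against 10.2% of probe sets and 17.6% of the 7436 genes that are not dim, and their median was -0.80. Rptn (repetin) fell 3.05-fold (-1.61 ± 0.195, SE; adjusted p = 0.00015), Tchh (trichohyalin) 2.59-fold (-1.37 ± 0.143, SE; adjusted p = 9.2e-05) and Flg (filaggrin) 1.17-fold (adjusted p = 0.0426). Hrnr (hornerin) did not pass along the line (0.18, adjusted p = 0.601), and its mean was higher from 80 min in the step fit (0.37, adjusted p = 0.0201). Its 200 and 220 min arrays (285.3 and 264.0) lay within the range up to 60 min, 254.8 to 294.1. Of the 15 cornified envelope genes measured 13 fell and 0 rose along the line, with a median of -0.49, against the same 10.2% and 17.6% falling. In the step fit 10 were lower and 1, Lor (loricrin), was higher from 80 min (0.37, adjusted p = 0.00217). Lce3a fell by 1.47, Lce3c by 0.94, Crct1 by 0.76 and Lce1a1 by 0.73 on the log2 scale. The 9 S100 genes and these lists were not tested against each other.

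**Figure D4:**
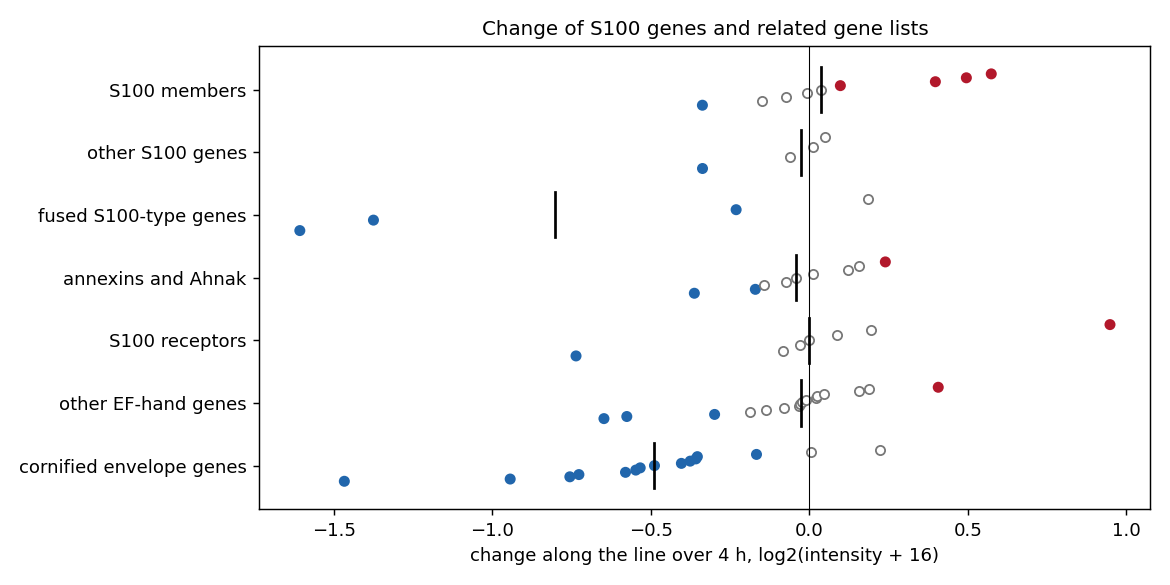
Change along the line over 4 h, log2(intensity + 16), of the S100 genes and of related lists; each point is 1 gene, filled where its adjusted p was under 0.05 (red, rose; blue, fell) and open otherwise, and the black bar is the list's median. The S100 genes spread from -0.34 to 0.57 around a median of 0.04, while the fused S100-type and cornified envelope genes lie mostly below 0.

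Since several S100 genes are also used to mark other cells, marker lists were followed beside them. Of 12 keratinocyte markers 11 were at or above the 40th percentile of mean level, Krt15 being the exception, and their summed intensity was between 80567 and 83747 from 80 min, against 80199 to 83198 up to 60 min. Of these 1 rose along the line, Krt5 (adjusted p = 0.0195). Beside S100a4, which fibroblasts also make, 10 of 16 fibroblast markers were under that percentile. Their sum was 4153 to 4804 from 80 min, against 4250 to 4576 before, and 1 rose, Fbln1 (0.23, adjusted p = 0.00581). Beside S100a8 and S100a9, 14 of 17 myeloid markers were under the percentile. The sum of the 17 was 2724 to 3230 from 80 min, against 2852 to 3271 before. The myeloid marker Cd68 fell (-0.55, adjusted p = 0.00151) and none rose. Of 8 melanocyte markers 7 were at or above the percentile, and 1, Mitf, fell (-0.35, adjusted p = 0.0119), with a sum of 6681 to 7466 from 80 min, against 7053 to 8042 before. Of 12 endothelial and muscle markers 9 were under it and 1, Acta2, rose (0.22, adjusted p = 0.025), with a sum of 4364 to 5236 from 80 min, against 4395 to 4486 before. No marker was listed at 0, as the lowest value on any array was 41.6. Along the line 22.4% of all probe sets and 39.9% of the 7436 genes that are not dim passed, in either direction. In the step fit 3 keratinocyte markers were higher and 1 lower, and 1 myeloid marker was higher and 1 lower. Fibroblast and melanocyte markers had 1 lower each, and 0 endothelial and muscle markers passed. For the step fit the shares were 25.1% and 41.7%. The part of other cells in the S100 values was not tested.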

How the data were processed

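Biotin-labelled RNA from the keratinocyte cultures was measured on Affymetrix arrays, per the labels' protocols. The authors deposited intensity values on a linear scale, 1 per probe set and array, and no source used here states how they were summarised and scaled. All tests ran on log2(intensity + 16) as deposited, without another normalization, which makes folds of dim genes too small. GEO's platform annotation assigned 1 gene to 20393 probe sets, several to 691 and none to 1606. For 20364 probe sets the symbol was taken from RefSeq (GRCm38.p6) through the Entrez identifier, whether or not it differed from the older one.

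All 20393 probe sets naming 1 gene were fitted in limma 3.58.1 under R 4.3.3 (eBayes, moderation trended on intensity), and Benjamini-Hochberg adjustment ran over all of them at 0.05, two-sided apart from the spline's F-test. Fits were a line in hours, a spline, windows in a fit with 4 levels, and a step between 60 and 80 min. Dim means under the 40th percentile of mean log2 level, 7.83. Shares called among the 7436 genes that are not dim come from fits of those genes alone, adjusted over them. Counts of listed genes come from the fits of all 20393 probe sets unless stated. The steps were tested on simulated data. Whether each array had a culture of its own is unknown. The p-values therefore reflect only how these 13 arrays scatter, and their number limits the precision.

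The members, lists and tests were chosen with earlier results of these data known. Named genes are all members, the measured S100, receptor and fused genes, up to 4 genes past the threshold with the largest slopes per other list, and the 3 most similar genes for the 2 largest rises and for the fall. Anxa2, Lor and Krt15 were named outside this rule. Other filters, pseudocounts, normalizations, moderation settings and arrays left out were the alternatives. Chosen after seeing the data were the fit within 0 to 60 min and the step without the arrays of 200 and 220 min.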

Additional observations from a re-analysis of the deposited data

How the results depend on the processing

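The step between 60 and 80 min was called for 5 of 9 S100 genes under all 19 alternatives tried. For the linear trend, counts stayed at 4 or 5 of 9 under the other filters, pseudocounts, normalizations, moderation settings, array weights, time scale and Gapdh covariate, and without the 200 and 220 min arrays. They were 3 to 5 with each array left out, 0 with the step as a block, 0 within 80 to 240 min and 0 within 0 to 60 min. Late against early gave 6 with array weights, 0 without the 200 and 220 min arrays and 0 to 5 with each array left out, and the spline gave 2 to 5 with each array left out. For late against early the share of all probe sets called was 11.7%, 23.9% with array weights and 2.97% without the 200 and 220 min arrays. With median centring its calls were 901 higher and 1400 lower, against 1340 higher and 1040 lower as reported, with the S100 genes at 2 higher and 1 lower in both.

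Slopes per hour turned sign as follows, in each case without a call. With the step as a block they were -0.0078 for S100a1, -0.0047 for S100a6 and 0.014 for S100a10. Within 80 to 240 min they were -0.0033 for S100a3, -0.0026 for S100a6 and 0.011 for S100a10. Within 0 to 60 min they were -0.11 for S100a1, -0.072 for S100a4, -0.030 for S100a6, 0.0028 for S100a8, 0.049 for S100a10 and -0.081 for S100a13. With array weights S100a1 was at -0.0054 and S100a10 at 0.0012, without the 200 and 220 min arrays S100a1 was at -0.017, and with probe sets averaged S100a10 was at 0.0015. With each array left out S100a1 lay between -0.0083 and 0.028 and S100a10 between -0.0041 and 0.0013. The cause was not tested.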

Other observations

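The probe set 1460351_at, which is annotated to S100a11, to its pseudogene S100a11-ps and to Gm12854, was between 13693 and 14457 intensity units from 80 min, against 13343 to 14002 up to 60 min, and its slope was -0.0009 per hour on the log2 scale. Which of these 3 transcripts it measured was not resolved.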
